A study of Mus musculus with 137 samples.

Results

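The 40 genes described here are type I interferon-stimulated genes, taken by symbol from the deposited count tables of 3 mouse macrophage cohorts. All 40 listed symbols were found among the 34573 symbols of each table, and all 40 passed the filter on low counts in every cohort. Type I interferons bind the IFNAR receptor, whose kinases activate the factor ISGF3, which holds STAT2 and IRF9. ISGF3 binds interferon-stimulated response elements and switches on genes that block viruses. Macrophages also make interferon beta after bacterial lipopolysaccharide (LPS) engages TLR4, and interferon gamma induces many of the same genes.

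Bone marrow-derived macrophages were grown from mice aged 7 weeks with M-CSF (20 ng/ml) over 7 days. They were harvested at rest (0 h) or after 6 h or 24 h with LPS and interferon gamma at 100 ng/ml each. In cohorts KO1 and KO2, KO cells carried Beclin1flox/flox with LysM-Cre, and WT cells carried the floxed alleles without Cre. LysM-Cre acts in myeloid cells and may leave the gene intact in some of them. In cohort KI, F121A cells were Beclin1F121A/F121A, and WT cells came from littermates. Beclin1 is an autophagy protein, and the F121A change is known to weaken its binding to BCL2. The labels give 3 culture numbers per genotype in KO1 (S36, S37 and S38 for KO, S33, S34 and S35 for WT), each with 3 repeats per time, which were summed. KO2 held 8 libraries per group (7 for WT at 24 h) and KI held 6. For KO2 and KI the labels do not say whether libraries came from separate mice or cultures, so p-values measure only the spread between these libraries, which may be technical.

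The 137 libraries held 1898574 to 6579185 counts each in cohort KO1. Those of KO2 held 1448218 to 15627379 counts and those of KI 3574158 to 11786453. Levels are given as CPM, counts scaled to a common library size after TMM, a factor that corrects for a few genes taking up many counts. Becn1, the targeted gene, had 8.88 to 14.3 CPM in KO and 25.6 to 36.9 CPM in WT cultures of KO1, and 1.35 to 5.41 CPM in KO and 18.2 to 49.6 CPM in WT libraries of KO2. In KI the point mutation leaves the RNA in place, and Becn1 had 23.9 to 49.4 CPM in F121A and 27.3 to 46.8 CPM in WT libraries. In KO2 the Y-linked gene Ddx3y had 6.38 to 25.2 CPM in KO and 0 to 0.694 CPM in WT libraries, and Xist 0 to 1.46 CPM in KO and 104.5 to 234.7 CPM in WT libraries. The KO2 genotypes therefore also differed by sex, and the design cannot separate these. KO1 libraries were all male and KI libraries all female by the same genes. The library labelled KO1 KO 6 h S38_3 and library 1 of KI WT 6 h carry a different time in their description and were grouped by title. Summed macrophage markers (9 genes, among them Csf1r and Cd68) stood at 6202 CPM or more in every resting culture or library. A bulk measurement cannot tell fewer cells of a type from less RNA per cell.

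Promoters from RefSeq (build GRCm38.p6, 250 bases before to 50 after the start) matched 32 of the 40 genes. The letters GAAANNGAA, the core of an interferon-stimulated response element, or TTCNNTTTC on the other strand, stood in 16 of the 32 (50%), against 9.76% of 27025 genes with such a window. The letters TTCNNNGAA, the core of a gamma-activated site, which read the same on both strands, stood in 7 of 32 (21.9%), against 9.55% of all. The 2 searches can overlap in sequence, and a match is a description of letters, not of binding. Windows of 60 bases around a match follow for 8 genes, written 5′ to 3′ along the gene, with the response element letters in capitals. Ifit1, Isg15, Rsad2 and Stat2 are shown because their levels are followed below, Oas1a and Oas1g because their starts are near copies, Eif2ak2 for its small knockout effect and Bst2 for its late course. The last 4 were chosen after their values were seen.
Ifit1: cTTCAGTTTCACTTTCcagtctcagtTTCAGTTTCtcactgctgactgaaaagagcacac
Isg15: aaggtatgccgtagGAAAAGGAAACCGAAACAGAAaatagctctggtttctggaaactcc
Rsad2: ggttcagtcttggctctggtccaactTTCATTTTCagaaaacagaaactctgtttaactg
Stat2: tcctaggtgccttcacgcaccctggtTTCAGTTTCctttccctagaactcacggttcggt
Oas1a: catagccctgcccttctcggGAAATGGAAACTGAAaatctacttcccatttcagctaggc
Oas1g: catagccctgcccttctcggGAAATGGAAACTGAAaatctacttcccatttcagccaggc
Eif2ak2: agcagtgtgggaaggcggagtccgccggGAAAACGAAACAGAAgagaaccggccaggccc
Bst2: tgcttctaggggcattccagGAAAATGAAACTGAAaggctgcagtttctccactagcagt
The windows lie at chr19:34640779-34640838 (plus strand) for Ifit1, chr4:156200851-156200910 (minus strand) for Isg15, chr12:26456538-26456597 (minus strand) for Rsad2 and chr10:128270251-128270310 (plus strand) for Stat2. Those of the other genes lie at chr5:120907506-120907565 (minus strand) for Oas1a, chr5:120887592-120887651 (minus strand) for Oas1g, chr17:78882523-78882582 (minus strand) for Eif2ak2 and chr8:71537563-71537622 (minus strand) for Bst2. Counted from the gene's start, matches began at -109, -103 and -84 in Ifit1 and at -78, -72 and -66 in Isg15. In Rsad2 the match began at -119, and in Stat2 at -221.

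Resting macrophages of KO2 expressed these genes at a higher level in KO than in WT cells. The median log2 fold change was smaller after stimulation, with 1.07 at rest, 0.37 at 6 h and 0.30 at 24 h. In F121A macrophages 6 of the 40 genes were called higher at rest, 21 at 6 h and 17 at 24 h, where 2.37%, 8.01% and 3.42% of all genes were. In KO1 none of the 40 genes was called at 0 h, 6 h or 24 h, and cultures of the same genotype differed widely at rest. The mean of log2(CPM + 1) over the 40 genes, here the list level, had a lowest, median and highest value of 4.30, 4.81 and 4.94 in KO and 3.55, 3.67 and 4.04 in WT libraries of KO2 at rest. At 6 h these were 8.99, 9.30 and 9.38 in KO and 8.65, 8.92 and 9.05 in WT libraries, and at 24 h 8.25, 8.32 and 8.54 in KO and 7.86, 7.96 and 8.04 in WT libraries. The genotypes overlapped in KO2 at 6 h and did not at 0 h or 24 h. The overlap at 6 h depends on the scaling, since the 40 genes' share of unscaled counts was 3.69% to 4.28% in KO and 2.42% to 3.08% in WT libraries. In KI the list level was 4.45, 4.52 and 4.69 in F121A and 4.23, 4.31 and 4.49 in WT libraries at rest, where the groups overlapped. It was 9.39, 9.51 and 9.66 in F121A and 9.03, 9.10 and 9.23 in WT libraries at 6 h, and 8.44, 8.52 and 8.65 in F121A and 8.05, 8.18 and 8.24 in WT libraries at 24 h, apart at both times. The cohorts' tables were scaled separately, so levels are compared within a cohort.

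**Figure D1:**
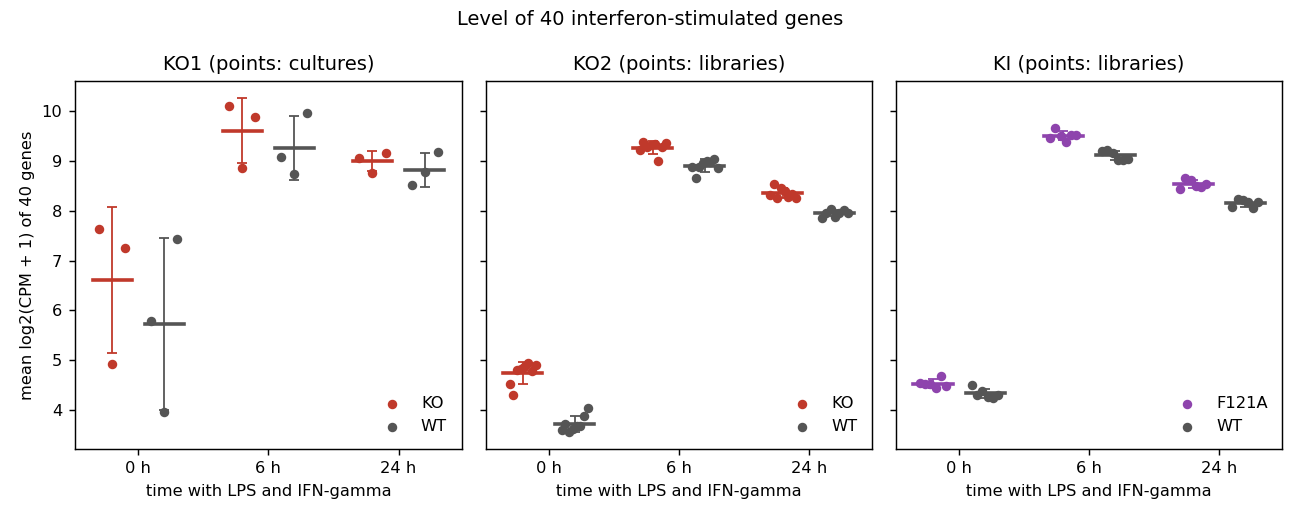
Mean log2(CPM + 1) over the 40 interferon-stimulated genes (y axis) for each KO1 culture and each KO2 and KI library (points) at 0 h, 6 h and 24 h, with the mutant left of WT and the mean ± SD drawn. Resting KO1 cultures spread from 3.97 to 7.64, while resting KO2 libraries lie between 4.30 and 4.94 in KO and between 3.55 and 4.04 in WT.

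Stimulation raised these genes in WT cells of all 3 cohorts. At 6 h over 0 h, 40 of 40 rose in KO2 and 40 of 40 in KI, with median log2 fold changes of 4.72 and 4.68 (edgeR quasi-likelihood test, Benjamini-Hochberg adjusted p under 0.05 over all genes). Over all genes tested 70.8% changed in KO2 (32.5% higher) and 73.5% in KI (36.7% higher and 36.8% lower). In KO1 33 of 40 rose, with a median of 2.71, where 56.7% of all genes changed (25.7% higher). The 7 without a call in KO1 were Bst2, Ifi27l2a, Ifit3, Lgals3bp, Ms4a4c, Oas3 and Slfn4, and without WT culture S33 the KO1 count was 28. KO1 titles carry the same culture number at each time, and with that number as a block 39 of 40 rose, among them Bst2, Ifit3, Lgals3bp, Ms4a4c, Oas3 and Slfn4. The shares of all genes with the block or without S33 are not given here, so nothing is read from these counts. Largest in KO2 were Rsad2 (9.38 ± 0.23), Cmpk2 (9.32 ± 0.29) and Oasl1 (9.19 ± 0.18), and smallest were Ifi27l2a (2.07 ± 0.15), Lgals3bp (2.48 ± 0.12) and Epsti1 (2.67 ± 0.10). Rsad2 encodes viperin, which makes a chain-terminating nucleotide, and its genomic neighbour Cmpk2 encodes a nucleotide kinase. In KI the largest were Oasl1 (9.14 ± 0.19), Slfn1 (8.27 ± 0.24) and Ifit2 (7.99 ± 0.18), and the smallest Epsti1 (1.73 ± 0.10), Lgals3bp (2.28 ± 0.11) and Ifi27l2a (2.58 ± 0.12). KO1 led with Cmpk2 (5.88 ± 0.99), Rsad2 (5.83 ± 1.04) and Oasl1 (5.57 ± 0.93), and its smallest calls were Oas2 (1.82 ± 0.53), Epsti1 (1.89 ± 0.60) and Ifitm3 (2.08 ± 0.64). Without S33 the calls of Oas2 and Epsti1 in KO1 are lost, and without S34 that of Epsti1.

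Between 6 h and 24 h most of the genes fell again in WT cells of KO2 and KI. In KO2 30 of 40 fell and 1 rose (median -1.004), where 59% of all genes changed (28% lower). In KI 33 fell and 2 rose (median -0.96), where 65.4% of all genes changed (31.8% lower and 33.6% higher). In KO1 7 fell and 2 rose (median -0.50), where 54.6% of all genes changed (25.9% lower and 28.7% higher). The 7 that fell in KO1, namely Eif2ak2, Oas2, Parp14, Samd9l, Slfn5, Slfn8 and Sp100, also fell in KO2 and KI. The largest falls were Oasl1 (-2.37 ± 0.14), Cmpk2 (-2.18 ± 0.21) and Slfn2 (-2.17 ± 0.12) in KO2, Ifit2 (-2.34 ± 0.14), Slfn5 (-2.23 ± 0.08) and Slfn2 (-2.005 ± 0.10) in KI, and Slfn5 (-2.55 ± 0.55), Samd9l (-2.06 ± 0.55) and Eif2ak2 (-1.74 ± 0.32) in KO1. Not called were Ddx60, Dtx3l, Epsti1, Herc6, Lgals3bp, Ms4a4c, Oas3, Rtp4 and Slfn1 in KO2, and Ddx60, Lgals3bp, Oas3, Rsad2 and Slfn1 in KI. Bst2, which encodes tetherin, a membrane protein that holds budding virus at the cell surface, rose in all 3 cohorts (0.83 ± 0.14 in KO2, 1.15 ± 0.11 in KI and 3.37 ± 0.70 in KO1). In KO1 Bst2 had 206, 129.6 and 255 CPM in KO, against 148, 148 and 222 CPM in WT at 24 h, and 30.02, 11.9 and 23.9 CPM in KO, against 10.96, 12.3 and 27.003 CPM in WT at 6 h. Isg15 rose in KO1 (1.75 ± 0.52) and Isg20 in KI (0.49 ± 0.13). The KO1 count of falls was 18 when only the WT groups at 24 h and 6 h were fitted, 11 without a filter and 8 with the culture number as a block. It was 2 without S33, 4 without S35 and 4 without S38, and the rise of Isg15 was not called without S33. The matching shares of all genes under these settings are not given here.

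**Figure D2:**
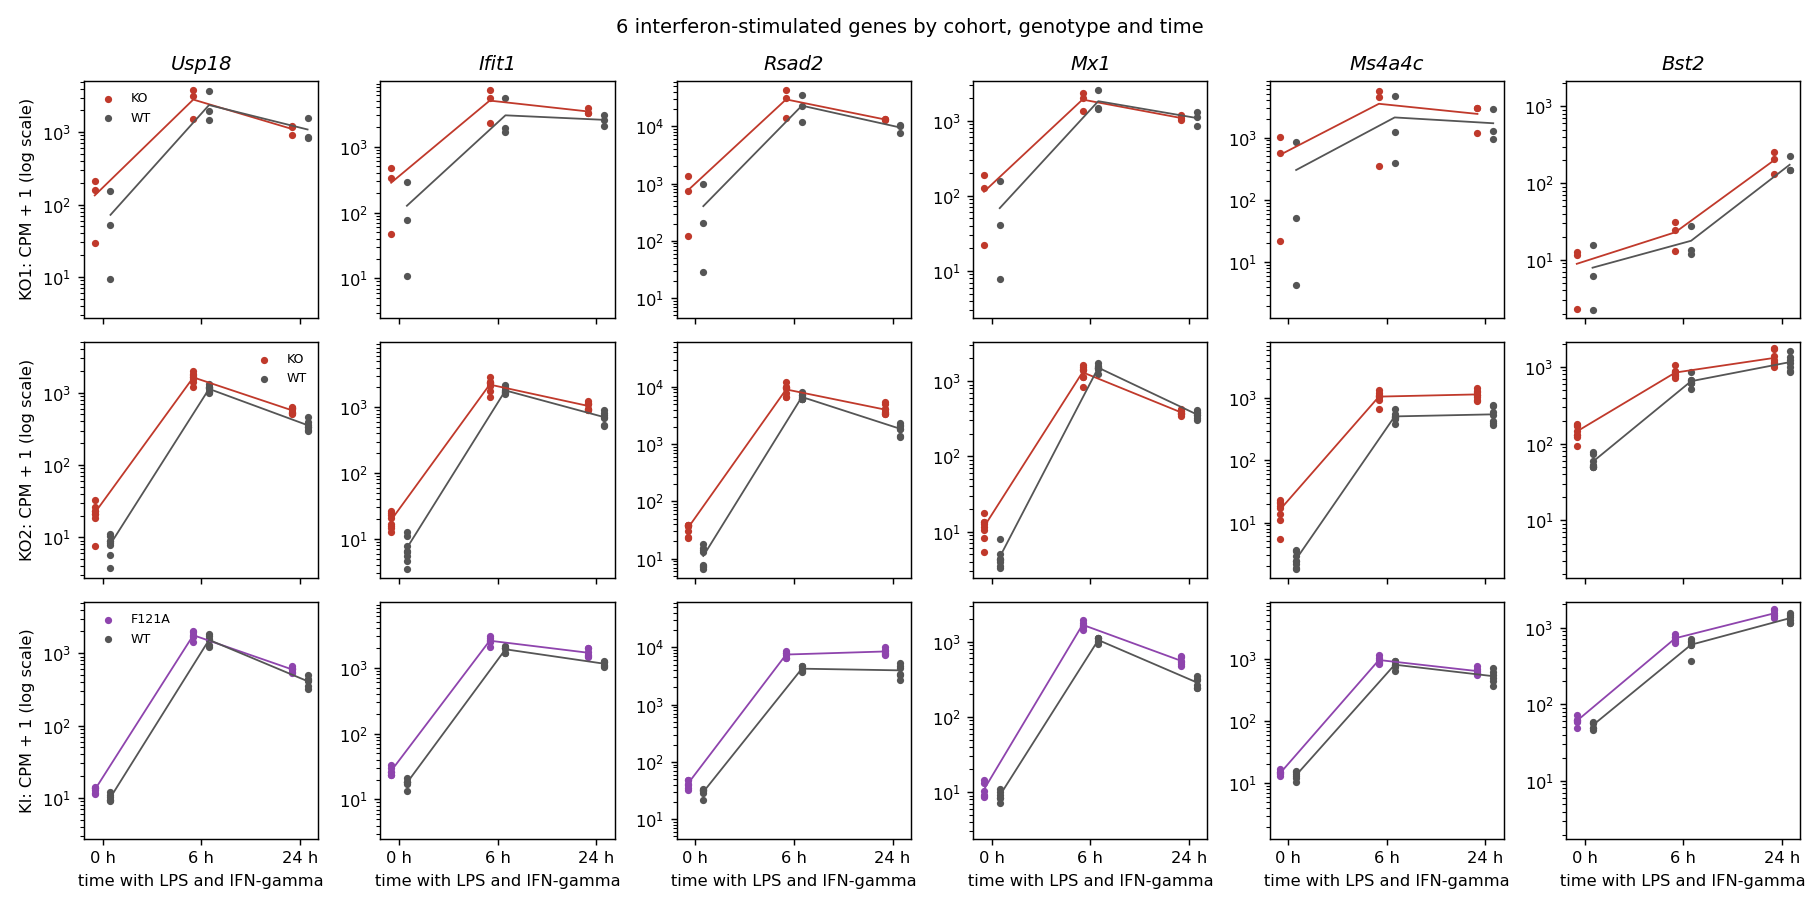
CPM + 1 (log scale, y axis) of Usp18, Ifit1, Rsad2, Mx1, Ms4a4c and Bst2 at 0 h, 6 h and 24 h in each cohort, with points for cultures (KO1) or libraries (KO2, KI) and lines through the means of mutant and WT. In KO2 the mutant and WT lines of Ms4a4c lie far apart at 0 h, with medians of 16.8 CPM in KO and 1.41 CPM in WT libraries.

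At rest in KO2, 35 of the 40 genes rose in KO over WT cells and none fell, with a median log2 fold change of 1.07. Over all 10794 genes tested 8.28% changed (3.84% higher), with a median of 0.01. At an unadjusted p under 0.05, 39 rose and none fell, and DESeq2 called 35 higher and none lower. The shares of all genes under these settings are not given here. The 5 without a call were Isg15 (0.83 ± 0.35), Samd9l (0.59 ± 0.22), Slfn8 (0.47 ± 0.21), Dtx3l (0.45 ± 0.20) and Slfn2 (-0.12 ± 0.11). The 8 KO libraries lay above all 8 WT libraries for 19 of the 40, which 0.926% of all genes did. Summed monocyte markers (Ccr2, Plac8 and 2 others) were 6.35 to 11.7 CPM in KO libraries, against 2.59 to 5.25 CPM in WT libraries, with no overlap. Summed neutrophil markers (9 genes) were 30.5 to 39.6 CPM in KO libraries, against 20.96 to 31.2 CPM in WT libraries. Of these markers, Ly6g and Camp had no counts in KO libraries, while none was without counts in WT libraries. Macrophage markers were 6900.1 to 9618 CPM in KO libraries, against 8460.3 to 11741 CPM in WT libraries, and those of plasmacytoid dendritic cells (5 genes, among them Siglech), which make much interferon, 29.7 to 40.2 CPM in KO libraries, against 24.4 to 41.3 CPM in WT libraries. The part of these markers, and of sex, in the interferon-stimulated genes was not tested.

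**Figure D3:**
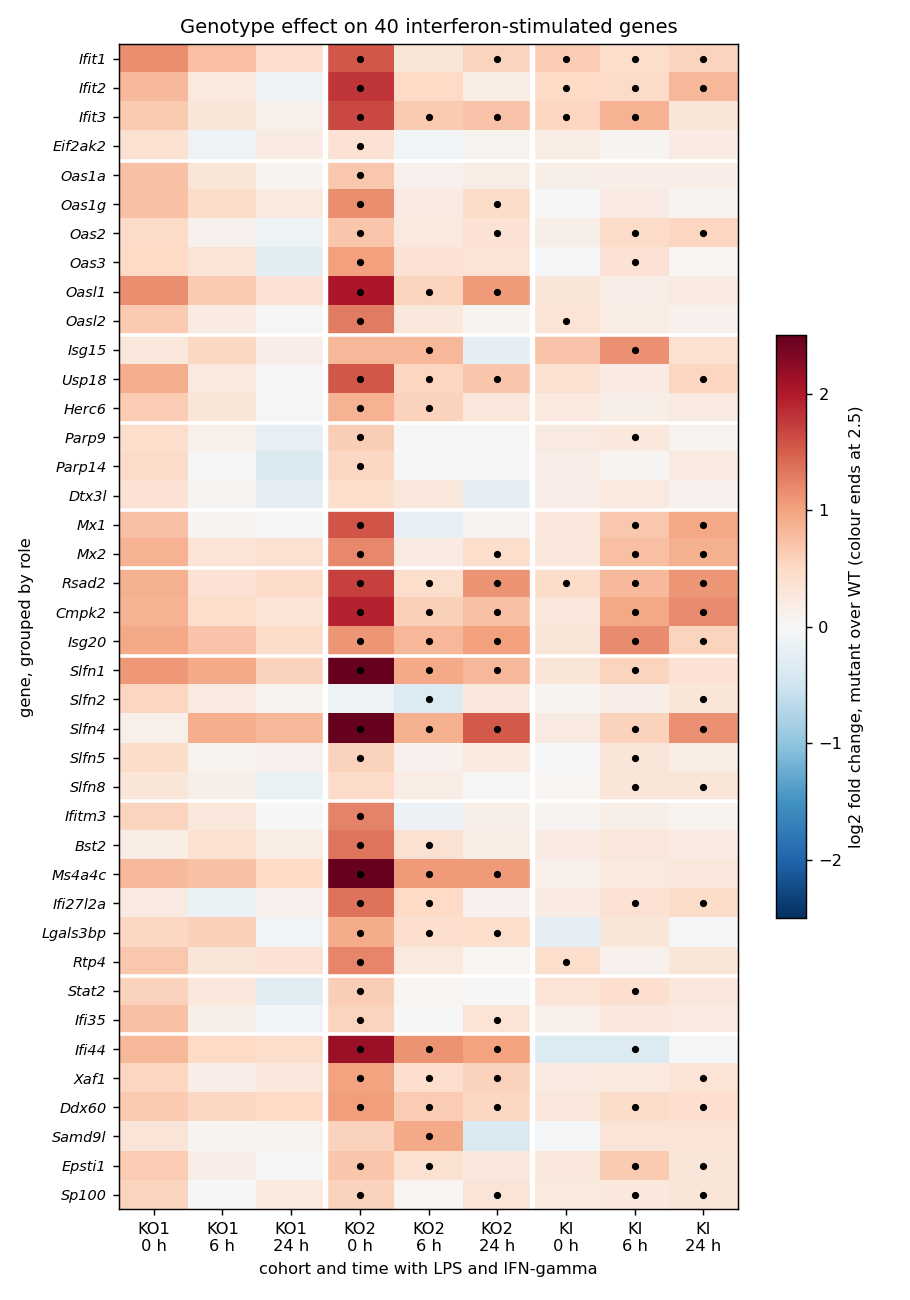
Heat map of log2 fold changes of the 40 genes (rows, grouped by role) for KO over WT in KO1 and KO2 and F121A over WT in KI at 0 h, 6 h and 24 h (columns), with colours ending at 2.5 and black dots on calls at an adjusted p under 0.05. Calls fill the KO2 column at 0 h with 35 of 40 genes, and the KO1 columns hold none.

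Among RNA-binding effectors, Ifit1 binds RNA caps that lack host methylation, Ifit2 and Ifit3 bind it or each other, and Eif2ak2 (PKR) halts translation on double-stranded RNA. All 4 rose in resting KO2 KO cells. At rest Ifit1 had 11.9, 17.9 and 25.3 CPM in KO cells, against 2.53, 5.45 and 11.8 CPM in WT cells (lowest, median and highest library throughout), so the groups did not overlap. Its log2 fold change was 1.56 ± 0.19, adjusted p = 1.1e-08. Ifit2 (1.78 ± 0.37) and Ifit3 (1.66 ± 0.22) rose by like amounts, and 57.3% of Ifit3's 38-base windows also occur in its neighbour Ifit3b. Eif2ak2 had the smallest called effect of the list (0.36 ± 0.09, adjusted p = 0.0062). Its call is lost without a filter on low counts (adjusted p = 0.11). It is also lost with libraries of neighbouring numbers summed into fewer units per group (adjusted p = 0.092). At 6 h only Ifit3 of the 4 was called (0.65 ± 0.16), and Ifit1 had 0.30 ± 0.16. At 24 h Ifit1 (0.56 ± 0.16, adjusted p = 0.014) and Ifit3 (0.71 ± 0.17) were called.

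Oligoadenylate synthetases make the second messenger that activates RNase L. All 6 genes of this group, which includes the related Oasl1 and Oasl2, rose in resting KO2 KO cells. Oasl1, which in mouse restrains the translation of Irf7, had 12.9, 25.5 and 33.9 CPM in KO cells, against 3.66, 6.21 and 9.45 CPM in WT cells, apart in all libraries (2.02 ± 0.15, adjusted p = 3.3e-16). At 6 h it had 4058, 5358 and 6477 CPM in KO cells, against 3303, 3418 and 4199 CPM in WT cells, where 7 of 8 KO libraries exceeded every WT library (0.56 ± 0.12, adjusted p = 0.00067). At 24 h it had 1312, 1411 and 1765 CPM in KO cells, against 562, 674 and 859 CPM in WT cells, again with no overlap (1.06 ± 0.13, adjusted p = 4.8e-09). It was the 1 member of its group called at 6 h, while 3 of 6 were called at 24 h. Oas1a (0.68 ± 0.13 at rest) and Oas1g (1.17 ± 0.13) share 64.4% and 60.7% of their 38-base windows with each other in GENCODE transcripts, so their counts cannot be fully told apart.

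Isg15 encodes a ubiquitin-like modifier, Usp18 removes it and also dampens IFNAR signalling, and Herc6 is the mouse ligase that attaches it. Usp18 had 6.62, 21.3 and 32.4 CPM in KO cells, against 2.74, 7.58 and 10.1 CPM in WT cells at rest, where 7 of 8 KO libraries exceeded every WT library (1.56 ± 0.17, adjusted p = 4.1e-10). Isg15 itself had few counts at rest, with 1.505, 3.90 and 6.08 CPM in KO cells, against 0.859, 2.22 and 3.54 CPM in WT cells, and its groups overlapped (0.83 ± 0.35, adjusted p = 0.14). At 6 h all 3 genes of the group were called. Isg15 had 608, 1158 and 2015 CPM in KO cells, against 385, 731 and 1036 CPM in WT cells at 6 h, with overlap in 3 of 8 KO libraries (0.82 ± 0.21, adjusted p = 0.0040). Usp18 rose by 0.53 ± 0.14, adjusted p = 0.0063 at 6 h and by 0.69 ± 0.15, adjusted p = 0.00061 at 24 h, where Isg15 was -0.25 ± 0.22 and not called. ADP-ribosylation genes had small effects: Parp9 (0.62 ± 0.16) and Parp14 (0.52 ± 0.11) were called at rest, and none of the 3 at 6 h or 24 h. Parp9 and Dtx3l overlap on opposite strands, which unstranded reads do not separate.

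Mx proteins are dynamin-like GTPases that trap viral particles. GENCODE annotates the mouse gene Mx2 as a polymorphic pseudogene, and only its RNA was measured here. Mx1 had 4.33, 11.03 and 16.4 CPM in KO cells, against 2.28, 3.25 and 7.08 CPM in WT cells at rest, with 7 of 8 KO libraries above every WT library (1.58 ± 0.18, adjusted p = 1.6e-09). After stimulation the Mx1 difference was -0.20 ± 0.13 at 6 h and 0.09 ± 0.14 at 24 h, neither called. Rsad2, Cmpk2 and the exonuclease gene Isg20 were called at all 3 times. Rsad2 had 22.3, 35.9 and 38.4 CPM in KO cells, against 5.63, 9.50 and 16.7 CPM in WT cells at rest (1.71 ± 0.18, adjusted p = 1.2e-10). At 6 h it had 6521, 9612 and 12186 CPM in KO cells, against 6034, 6339 and 8119.8 CPM in WT cells (0.44 ± 0.16, adjusted p = 0.048), and at 24 h 3292, 3847 and 5349.6 CPM in KO cells, against 1339.7, 1853 and 2295 CPM in WT cells (1.12 ± 0.17, adjusted p = 5.8e-07). The Rsad2 groups were apart at 0 h and 24 h and overlapped at 6 h, where the call is lost with DESeq2 size factors or summed libraries.

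Schlafens include Slfn2, needed for T cell and monocyte quiescence in mouse, and Slfn4, a myeloid member. Slfn4 rose at rest, where its counts were few, with 1.505, 3.15 and 7.45 CPM in KO cells, against 0, 0.269 and 0.894 CPM in WT cells (3.26 ± 0.48, adjusted p = 7.8e-07). At such counts its size is imprecise. When only those 2 groups are fitted, Slfn4 does not pass the filter on low counts and is not tested. At 24 h, where counts were ample, Slfn4 had 83.4, 124 and 148 CPM in KO cells, against 25.8, 34.8 and 58.9 CPM in WT cells with no overlap (1.53 ± 0.21, adjusted p = 9.5e-08), and at 6 h it was 0.89 ± 0.20. Slfn1 rose as well at rest (2.56 ± 0.27), at 6 h (0.94 ± 0.14) and at 24 h (0.83 ± 0.14), with no overlap at any time. Slfn2 was the 1 member that fell in KO2, at 6 h (-0.34 ± 0.11, adjusted p = 0.027), a call lost without a filter or with summed libraries.

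Membrane and secreted products all rose at rest in KO2, 6 of 6. Ifitm3, which blocks virus entry from endosomes, had 225, 292 and 366 CPM in KO cells, against 93.6, 117 and 182 CPM in WT cells, with no overlap (1.23 ± 0.13, adjusted p = 1.3e-10). After stimulation Ifitm3 was -0.15 ± 0.13 at 6 h and 0.15 ± 0.13 at 24 h, neither called. Ms4a4c, a membrane protein of the CD20 family, had the largest effect of the list, with 4.51, 16.8 and 22.1 CPM in KO cells, against 0.787, 1.41 and 2.68 CPM in WT cells at rest (3.27 ± 0.25, adjusted p = 6.4e-16). It stayed apart at 6 h, with 679, 1074 and 1331 CPM in KO cells, against 383, 501 and 677 CPM in WT cells (1.06 ± 0.16, adjusted p = 2.2e-06), and at 24 h, with 908, 1135 and 1469.9 CPM in KO cells, against 364, 538 and 772 CPM in WT cells (1.07 ± 0.17, adjusted p = 3.6e-06). Bst2 had 92.7, 138 and 181 CPM in KO cells, against 48.2, 50.7 and 77.9 CPM in WT cells at rest, apart in all libraries (1.33 ± 0.14), and 0.38 ± 0.13 at 6 h, a call lost with DESeq2. Stat2, the ISGF3 subunit, had 25.4, 31.7 and 40.4 CPM in KO cells, against 13.9, 21.5 and 28.8 CPM in WT cells at rest, with 6 of 8 KO libraries above every WT library (0.61 ± 0.16, adjusted p = 0.0061). Stat2 was 0.06 ± 0.14 at 6 h and 0.02 ± 0.15 at 24 h, not called. Among the remaining genes, Ifi44 was apart at each time, with 3.91, 6.53 and 10.2 CPM in KO cells, against 0.791, 1.49 and 2.74 CPM in WT cells at rest (2.15 ± 0.19, adjusted p = 2.0e-13) and 366, 452 and 570.0 CPM in KO cells, against 191, 212 and 225 CPM in WT cells at 6 h (1.13 ± 0.12, adjusted p = 4.9e-11). Ifi35 (0.56 ± 0.12) had one of the 3 smallest called effects at rest, beside Parp14 and Eif2ak2.

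In stimulated KO2 cells fewer of the 40 genes were called. At 6 h 19 rose and Slfn2 fell, with a median of 0.37, where 15.4% of all genes changed (7.62% higher and 7.75% lower). Ifi44, Ms4a4c and Samd9l (0.94 ± 0.19, adjusted p = 0.00031) led, and Epsti1 (0.37 ± 0.09), Bst2 and Xaf1 (0.41 ± 0.10) had the smallest calls. The groups were apart for 4 genes, Isg20, Ifi44, Slfn1 and Ms4a4c, which 1.4% of all genes were. With CPM of total counts 14 genes were apart, and the share of all genes on that scale is not given here. At 24 h 19 rose and none fell, with a median of 0.30, where 11.3% of all genes changed (6.26% higher and 5.06% lower). Slfn4, Rsad2 and Ms4a4c led, and Sp100 (0.32 ± 0.10), Ifi35 (0.34 ± 0.11) and Oas2 (0.36 ± 0.11) had the smallest calls, each lost without a filter. The groups were apart for 13 genes, which 2.64% of all genes were. Monocyte markers at 6 h were 8.38 to 12.9 CPM in KO libraries, against 4.98 to 9.36 CPM in WT libraries, with overlap. Neutrophil markers at 6 h had a lower median in KO libraries (57.2 CPM) than in WT libraries (67.8 CPM). Their ranges overlapped, with 39.7 to 63.8 CPM in KO and 48.7 to 73.9 CPM in WT libraries. At 24 h monocyte markers were 20.9 to 26.6 CPM in KO libraries, against 7.79 to 15.1 CPM in WT libraries, without overlap. Neutrophil markers were 77.4 to 116 CPM in KO libraries, against 60.5 to 68.9 CPM in WT libraries, also without overlap. The neutrophil genes Retnlg, Mpo and Elane had no counts in either group. Macrophage markers were 8069 to 12764 CPM in KO libraries, against 9904 to 13769 CPM in WT libraries. The part of these markers in the result was not tested. Called at all 3 times were 13 genes: Cmpk2, Ddx60, Ifi44, Ifit3, Isg20, Lgals3bp, Ms4a4c, Oasl1, Rsad2, Slfn1, Slfn4, Usp18 and Xaf1. The share of all genes called at all 3 times is not given here, so nothing is read from that count.

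The change of the KO2 genotype effect with time was tested as an interaction. From 0 h to 6 h the effect shrank for 24 of 40 genes and grew for none, with a median difference of -0.63, where 4.07% of all genes changed (2.5% lower). The largest were Slfn4 (-2.38 ± 0.54, adjusted p = 0.0038), Ms4a4c (-2.22 ± 0.30, adjusted p = 6.1e-07) and Mx1 (-1.78 ± 0.23, adjusted p = 1.7e-07), and the smallest Eif2ak2 (-0.42 ± 0.12), Sp100 (-0.53 ± 0.14) and Ifi35 (-0.55 ± 0.16), each lost without a filter or with summed libraries. Without a call from 0 h to 6 h were Ddx60, Dtx3l, Epsti1, Herc6, Ifit2, Isg15, Isg20, Lgals3bp, Oas2, Oas3, Parp9, Samd9l, Slfn2, Slfn5, Slfn8 and Stat2. From 0 h to 24 h the effect shrank for 20 and grew for none, with a median of -0.70, where 5.91% of all genes changed (2.72% lower). Ms4a4c (-2.21 ± 0.30), Slfn1 (-1.74 ± 0.32) and Slfn4 (-1.73 ± 0.56, just inside the threshold) led, and Parp14 (-0.51 ± 0.15), Oas1g (-0.71 ± 0.17) and Mx2 (-0.77 ± 0.23) were the smallest calls. Those of Parp14 and Mx2 are lost without a filter or with summed libraries, and that of Slfn4 with DESeq2 size factors or summed libraries. Both interactions share the resting libraries, so their counts are not separate evidence. Seen per gene, the KO2 resting level had a lowest, median and highest value over the 40 genes of 0.490% (Rsad2), 7.47% and 60.7% (Ifi27l2a) of the WT level at 6 h in KO cells, and 0.152%, 3.80% and 23.8% in WT cells.

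**Figure D4:**
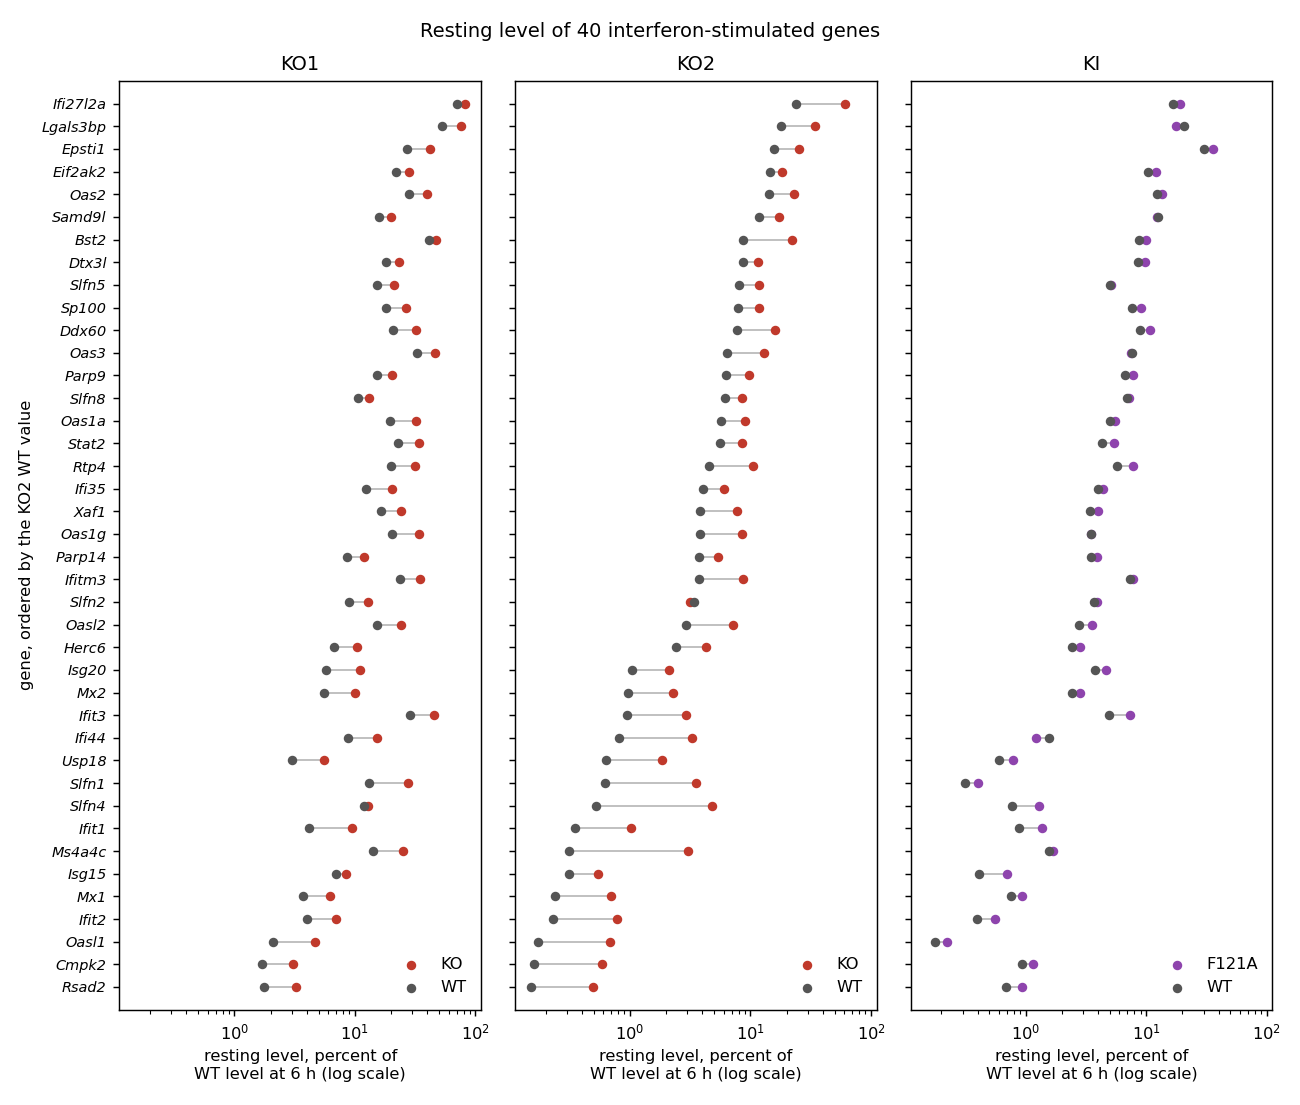
Resting level of each gene as a percent of its mean WT level at 6 h in the same cohort (log scale, x axis), with mutant and WT joined by a line and genes ordered by the KO2 WT value. In KO2 the median gene stands at 7.47% in KO and 3.80% in WT, in KI at 4.50% in F121A and 3.86% in WT, and in KO1 at 22.2% in KO and 15.3% in WT.

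F121A macrophages differed from WT littermates in few of these genes at rest. There 6 of 40 rose and none fell, with a median of 0.23, where 2.94% of all genes changed (2.37% higher). Ifit1 had 22.6, 25.01 and 32.2 CPM in F121A cells, against 12.2, 17.4 and 20.2 CPM in WT cells, with no overlap (0.63 ± 0.12, adjusted p = 0.00061). Its relatives Ifit3 (0.54 ± 0.16, adjusted p = 0.045) and Ifit2 (0.49 ± 0.14, adjusted p = 0.042) were called too, with Rsad2 (0.46 ± 0.13, adjusted p = 0.048), Rtp4 (0.44 ± 0.11, adjusted p = 0.0093) and Oasl2 (0.35 ± 0.09, adjusted p = 0.017). Rsad2 had 31.7, 39.9 and 47.6 CPM in F121A cells, against 21.01, 30.6 and 32.2 CPM in WT cells, with 5 of 6 F121A libraries above every WT library. Ifit1 and Oasl2 were the 2 genes whose groups did not overlap, which 1.57% of all genes did not. Isg15 (0.70 ± 0.32), Usp18 (0.38 ± 0.12), Stat2 (0.33 ± 0.10), Oasl1 (0.29 ± 0.15), Mx1 (0.28 ± 0.13), Slfn4 (0.23 ± 0.44), Ms4a4c (0.12 ± 0.13) and Ifitm3 (0.07 ± 0.10) were not called. F121A library 5 stood apart at rest, with the lowest share of counts in the 40 genes (0.233%) and the highest list level (4.69) of its group. Without it 3 genes were called (Ifit1, Oasl2 and Rtp4), as also with DESeq2 size factors. The call of Oasl2 is lost without a filter or with summed libraries, and those of Ifit2 and Ifit3 when only 2 groups are fitted. Monocyte markers were 82.2 to 105 CPM in F121A libraries, against 94.7 to 118 CPM in WT libraries at rest.

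At 6 h 21 of 40 rose in F121A over WT cells and Ifi44 fell, with a median of 0.30, where 11.5% of all genes changed (8.01% higher and 3.49% lower). Isg20, an exonuclease of viral RNA, led with 149, 176 and 189 CPM in F121A cells, against 54.1, 78.7 and 86.8 CPM in WT cells and no overlap (1.19 ± 0.13, adjusted p = 1.3e-08). Isg15 had 815, 1221 and 1817 CPM in F121A cells, against 407, 563 and 892 CPM in WT cells, with 5 of 6 F121A libraries above every WT library (1.14 ± 0.23, adjusted p = 0.00052). Cmpk2 had 2599, 3242 and 3719 CPM in F121A cells, against 1372, 1589 and 1940.3 CPM in WT cells (0.98 ± 0.14, adjusted p = 2.2e-06), and its neighbour Rsad2 6524, 7661 and 8571 CPM in F121A cells, against 3739.6, 4165 and 4738 CPM in WT cells (0.82 ± 0.13, adjusted p = 1.6e-05), both apart. Mx1 (0.68 ± 0.12, adjusted p = 5.9e-05) and Mx2 (0.75 ± 0.16) both rose, with Mx1 at 1437, 1647 and 1942 CPM in F121A cells, against 929, 1063 and 1124 CPM in WT cells. Stat2 had 639, 736 and 803 CPM in F121A cells, against 454, 563 and 615 CPM in WT cells, apart in all libraries (0.43 ± 0.09, adjusted p = 0.0017). Ifit1 (0.43 ± 0.11) and Slfn4 (0.57 ± 0.15) were called as well, with Sp100 (0.26 ± 0.08), Parp9 (0.27 ± 0.09) and Slfn5 (0.29 ± 0.08) as the smallest calls, each lost without a filter. Not called were Oasl1 (0.17 ± 0.13), Usp18 (0.21 ± 0.10), Ms4a4c (0.25 ± 0.12) and Ifitm3 (0.16 ± 0.10), of which Oasl1, Usp18 and Ms4a4c had been called in KO2 at 6 h. Ifi44 ran the other way, with 322, 339.9 and 383 CPM in F121A cells, against 388, 446 and 474 CPM in WT cells (-0.34 ± 0.11, adjusted p = 0.040), and its groups were apart. That call is lost with summed libraries or without the WT library of conflicting labels. The F121A libraries lay above all WT libraries for 13 genes, which 4.57% of all genes did. Neutrophil markers were 93.8 to 118 CPM in F121A libraries, against 60.1 to 75.2 CPM in WT libraries at 6 h, without overlap. The neutrophil genes Retnlg and Elane were at 0 in both groups, and Ly6g was at 0 in WT. Plasmacytoid dendritic cell markers were 91.3 to 117 CPM in F121A libraries, against 70.5 to 91.2 CPM in WT libraries, also without overlap, with Ly6d at 0 in WT. Conventional dendritic cell markers had a lower median in F121A libraries (16.8 CPM) than in WT libraries (26.9 CPM). Their ranges overlapped, with 13.4 to 23.7 CPM in F121A and 20.5 to 29.5 CPM in WT libraries, and Cd209a was at 0 in F121A. The part of these sets in the result was not tested.

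At 24 h 17 of 40 rose in F121A cells and none fell, with a median of 0.30, where 7.2% of all genes changed (3.42% higher). Cmpk2 (1.17 ± 0.14, adjusted p = 1.3e-07), Slfn4 (1.14 ± 0.15, adjusted p = 1.5e-06) and Rsad2 (1.10 ± 0.13, adjusted p = 1.5e-07) led. Rsad2 had 7477, 8331 and 10070.2 CPM in F121A cells, against 2655, 3922 and 5342 CPM in WT cells, and Slfn4 53.4, 57.6 and 75.0 CPM in F121A cells, against 23.1, 26.6 and 34.01 CPM in WT cells, neither with overlap. Mx1 had 480.1, 545 and 645 CPM in F121A cells, against 239.8, 284 and 350.4 CPM in WT cells, apart in all libraries (0.96 ± 0.12, adjusted p = 2.8e-07). Usp18 (0.55 ± 0.11, adjusted p = 0.00049) and Ifit1 (0.55 ± 0.11, adjusted p = 0.00061) were also apart, while Epsti1 (0.30 ± 0.09), Slfn2 (0.30 ± 0.10) and Sp100 (0.30 ± 0.08) had the smallest calls, each lost without a filter. Stat2 (0.28 ± 0.09), Isg15 (0.37 ± 0.23), Oasl1 (0.22 ± 0.13), Ms4a4c (0.27 ± 0.12) and Ifitm3 (0.09 ± 0.10) were not called. The groups were apart for 13 genes, which 1.97% of all genes were. Ifit1, Ifit2 and Rsad2 were called at all 3 times, and the matching share of all genes is not given here. The resting calls of Ifit2 and Rsad2 are lost with DESeq2 size factors, with summed libraries or without library 5. The F121A effect grew from 0 h to 6 h for Isg20 (0.88 ± 0.23) and Cmpk2 (0.69 ± 0.20), where 3.3% of all genes changed (2.36% higher). Lgals3bp was the third gene whose effect differed between these times (0.52 ± 0.15), with fold changes of -0.22 ± 0.11 at rest and 0.30 ± 0.11 at 6 h, neither called. Its interaction call is lost without a filter, with summed libraries or without library 5. It grew from 0 h to 24 h for Cmpk2 (0.89 ± 0.20), Mx1 (0.68 ± 0.18) and Rsad2 (0.63 ± 0.19), where 4.26% of all genes changed, and it shrank for none at an adjusted p under 0.05.

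KO1 cultures of 1 genotype differed from each other at rest by more than the genotypes did. No gene of the 40 was called at 0 h, 6 h or 24 h, where 0.0219%, 0.0219% and 0.0073% of all genes changed (0.0146%, 0.0146% and 0% higher). At an unadjusted p under 0.05 none of the 40 passed either, and DESeq2 called none. The log2 fold change was above 0 for 40, 38 and 28 genes at the 3 times, with medians of 0.63, 0.29 and 0.10. At rest this median was 1.62 without WT culture S35, 0.16 without WT culture S34 and 0.11 without KO culture S36. It was 1.08 without S37. No interaction with time was called, with 0% of all genes called in either, 0 of 40 at an unadjusted p under 0.05 and 0 by DESeq2.

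Ifit1 at rest in KO1 had 472, 46.2 and 329 CPM in KO cultures S36, S37 and S38, against 75.0, 10.0 and 292 CPM in WT cultures S33, S34 and S35 (1.17 ± 0.82, adjusted p = 0.89). Culture S37 was far below the other KO cultures, S34 far below the other WT cultures, and the genotypes overlapped. Ms4a4c had 1006, 20.6 and 567 CPM in KO, against 51.1, 3.26 and 849 CPM in WT in the same culture order (0.82 ± 1.31), the widest range of the list in both genotypes. Usp18 had 212, 28.4 and 157 CPM in KO, against 50.3, 8.49 and 154 CPM in WT, Rsad2 1377, 119 and 754 CPM in KO, against 202, 27.4 and 979 CPM in WT and Oasl1 261, 28.1 and 246 CPM in KO, against 38.5, 8.04 and 194 CPM in WT. Every one of these put S35 first and S34 last among WT cultures and S37 last among KO cultures. Mx1 had 189, 20.98 and 126 CPM in KO, against 40.2, 6.75 and 156 CPM in WT, Stat2 295, 36.2 and 218 CPM in KO, against 87.4, 26.9 and 255 CPM in WT and Ifitm3 1506, 284 and 1316 CPM in KO, against 713, 135 and 1271 CPM in WT. Slfn4 had 72.3, 2.06 and 29.9 CPM in KO, against 4.51, 0.618 and 90.6 CPM in WT, and Isg15 9.44, 2.33 and 6.14 CPM in KO, against 3.61, 2.02 and 9.15 CPM in WT. Over the 40 genes S35 was highest and S34 lowest of the WT cultures for 40 of 40, S37 was lowest of the KO cultures for 40 of 40, and S36 was highest for 36. The range between cultures had a median over the list of 2.46 log2 units in KO and 3.04 in WT, against 0.43 and 0.45 over all 13693 genes tested.

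**Figure D5:**
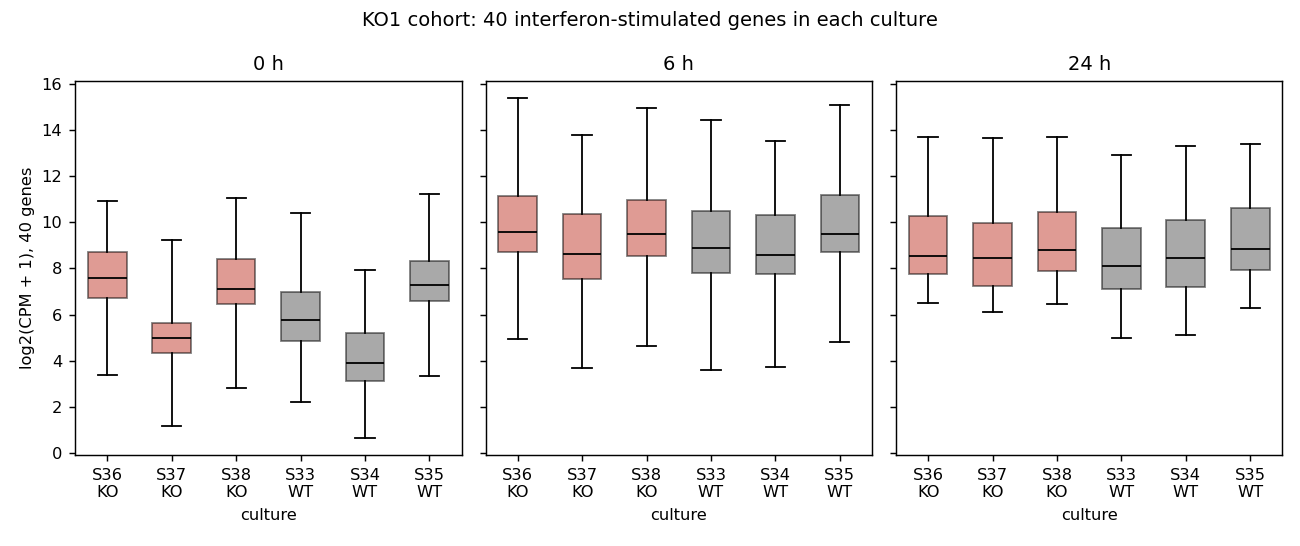
Box plots of log2(CPM + 1) of the 40 genes in each KO1 culture at 0 h, 6 h and 24 h, with KO cultures S36, S37 and S38 left of WT cultures S33, S34 and S35, boxes at the quartiles and whiskers from the lowest to the highest gene. Boxes of S37 and S34 sit below the others of their genotype at 0 h, and the median range between cultures is 0.50 log2 units in KO and 0.57 in WT at 24 h.

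The repeats of a culture stayed close in most cases. At rest the 3 repeats had list levels of 7.47 to 7.73 in S36, 4.17 to 5.24 in S37 and 7.13 to 7.33 in S38 (KO), against 5.52 to 5.96 in S33, 3.78 to 4.04 in S34 and 7.33 to 7.53 in S35 (WT). The 40 genes held 2.33%, 0.489% and 1.94% of counts in S36, S37 and S38, against 0.788%, 0.202% and 2.14% in S33, S34 and S35. In KO2 their share at rest was 0.234% to 0.448% in KO and 0.131% to 0.175% in WT libraries. The median range between KO1 cultures was 1.16 log2 units in KO and 1.07 in WT at 6 h. Irf7, a transcription factor that is itself induced by interferon, moved with the cultures, at 925, 49.1 and 631 CPM in KO, against 261, 10.2 and 843 CPM in WT. Summed monocyte markers were 84.0, 42.3 and 98.8 CPM in S36, S37 and S38, against 85.0, 37.3 and 156 CPM in S33, S34 and S35, lowest in S37 and S34. Neutrophil markers were 254, 556 and 205 CPM in those KO cultures, against 128, 141 and 129 CPM in the WT cultures. Macrophage markers were 10220, 6202 and 9617 CPM in the KO cultures, against 8764, 7580 and 7448 CPM in the WT cultures. They were lowest in S37 among KO cultures, but not in S34 among WT cultures. The part of these cells in the culture differences was not tested. Becn1 was highest in S37 and S34, the cultures lowest in these genes, with 9.95, 14.3 and 9.40 CPM in KO, against 29.9, 36.9 and 29.1 CPM in WT. After stimulation Ifit1 ranged less, with 7175, 2293 and 5545 CPM in KO, against 1907, 1640.2 and 5425 CPM in WT at 6 h and 3841, 3194 and 3227 CPM in KO, against 2064, 2528 and 3067 CPM in WT at 24 h. At 24 h Ifit1, Mx2 and Rsad2 were above all WT cultures in all KO cultures, 3 genes of 40, where 7.48% of all genes were, and at 6 h Oasl2 alone was (3.93%). At rest no gene was, against 6.15% of all genes.

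The resting effects of the cohorts were compared as a difference of differences. KO2 minus KI differed for 22 of 40 genes, all with a larger KO2 effect, with a median of 0.86, where 3.87% of all genes differed (1.65% higher). Ms4a4c (3.16 ± 0.29), Slfn4 (3.04 ± 0.81) and Ifi44 (2.51 ± 0.24) differed most, and Oas2 (0.55 ± 0.16), Xaf1 (0.77 ± 0.16) and Ddx60 (0.78 ± 0.23) least among the calls. Without a call were Dtx3l, Eif2ak2, Epsti1, Herc6, Ifi35, Ifit2, Isg15, Isg20, Mx2, Oas1a, Parp14, Parp9, Samd9l, Slfn2, Slfn5, Slfn8, Sp100 and Stat2. KO2 minus KO1 differed for none of the 40, with a median of 0.44 and 0.488% of all genes called. At an unadjusted p under 0.05, 5 were higher and 1 lower, DESeq2 called none, and edgeR without a filter called 5 higher. For these counts the shares of all genes are not given here. Without S35 the median of KO2 minus KO1 was -0.69, without S37 -0.03, without S34 0.91 and without S36 0.92, so KO1 does not fix its direction. KO2 and KI have their own controls. At rest 6 genes were called higher in both, 17.1% of the KO2 calls and 100% of the KI calls. At 6 h 10 were shared, 52.6% of the KO2 and 47.6% of the KI calls, and at 24 h 11, 57.9% and 64.7%. Since near equal parts of the 40 genes were called and not called at 6 h in each cohort, many shared calls would arise without any link, and nothing is read from these overlaps. Shared at 6 h were Cmpk2, Ddx60, Epsti1, Ifi27l2a, Ifit3, Isg15, Isg20, Rsad2, Slfn1 and Slfn4.

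Calls were compared between genes with and without the response element letters, with no test of the difference. In resting KO2 cells 13 of the 16 genes with the letters were called higher in KO, with a median log2 fold change of 1.04, and 14 of the 16 without, with a median of 1.05. At 24 h in KO2 these were 6 with (median 0.21) and 10 without (median 0.39), at 6 h 7 and 10. In KI 9 with and 7 without were called higher at 6 h, and 4 and 8 at 24 h. Among the largest resting KO2 effects, Ms4a4c, Slfn4, Slfn1 and Oasl1 have none in this window, while Ifi44 has a match at -3. Eif2ak2, with the smallest call, has a pair of overlapping matches. The resting medians with and without the letters were near equal, so nothing is read from these single genes. That these letters are absent from the window says nothing of the factor elsewhere.

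Other genes of the interferon pathway were taken as a list of 47, of which 31 passed the filter in KO1 and KI and 30 in KO2. In WT cells at 6 h over 0 h, 25 rose and 2 fell in KO2, 25 rose and 4 fell in KI, and 23 rose and 4 fell in KO1, where 32.5%, 36.7% and 25.7% of all genes rose. In resting KO2 cells 5 rose in KO and none fell, where 3.84% of all genes rose. Irf7 had 663, 859.9 and 1093 CPM in KO cells, against 71.5, 123 and 159 CPM in WT cells, with no overlap (2.88 ± 0.15, adjusted p = 2.8e-23). Irf9 (0.54 ± 0.10), an ISGF3 subunit gene, rose too, as did Ddx58 (0.73 ± 0.15) and Ifih1 (0.79 ± 0.18), which encode sensors of viral RNA. The Irf7 effect shrank with stimulation (-2.71 ± 0.20 from 0 h to 6 h). At 6 h 5 rose and 5 fell (7.62% and 7.75% of all genes), with Ifngr2 (-0.54 ± 0.09), Socs3 (-0.88 ± 0.17) and Irf8 (-0.53 ± 0.12) of smallest adjusted p, the interferon gamma receptor chain, an inhibitor of cytokine signalling and a myeloid factor. At 24 h 3 rose and 4 fell (6.26% and 5.06% of all genes), with Tmem173 (-0.98 ± 0.17), which encodes STING, Ifnar2 (0.41 ± 0.08) and Tyk2 (-0.66 ± 0.15) first. In KI the DNA sensor gene Mb21d1 was the 1 call at rest (0.77 ± 0.22, adjusted p = 0.041), where 2.37% of all genes rose. At 6 h 13 rose in F121A cells and 1 fell, where 8.01% of all genes rose and 3.49% fell, led by Ifnar1 (0.65 ± 0.08, adjusted p = 1.6e-07), Ifngr2 (0.50 ± 0.08) and Irf7 (0.72 ± 0.12), and at 24 h Irf5 (0.35 ± 0.09), Ifnar1 (0.28 ± 0.08) and Irf1 (0.31 ± 0.10) rose (3.42% of all genes). KO1 had no call. Ifnb1, the interferon beta gene, was at 0 CPM in every resting KO2 KO library and at 0 to 0.143 CPM in WT libraries, too few reads to compare. At 6 h it had 0.427 to 1.83 CPM in KO and 0 to 1.58 CPM in WT libraries of KO2, where it was not tested. In KI it had 3.29 to 5.11 CPM in F121A and 4.66 to 7.32 CPM in WT libraries at 6 h (-0.57 ± 0.30, adjusted p = 0.26).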

How the data were processed

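The authors deposited raw counts per gene for each of 3 cohorts. Per the labels' protocols the libraries were made by Smart-Seq2, with oligo-dT priming, paired reads, no strand information and no molecular identifiers, so the precision given by depth covers counting error only. The submitters' processing notes name TopHat, HTSeq and the build mm10, and versions are not given in the sources used here. Each of the tables' columns was mapped to a sample by its name, and 0 columns stayed unmapped. The 3 repeats of a KO1 culture were summed. Closely repeated libraries were looked for, and none agreed within sampling noise (lowest chi-square per degree of freedom 2.79 over 467 pairs).

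Each cohort had 1 edgeR 4.0.16 quasi-likelihood fit (R 4.3.3) over its 6 groups after filterByExpr and TMM. Cohorts were set against each other in 1 joint fit, with Benjamini-Hochberg adjustment of p-values across every gene tested and calls at an adjusted p under 0.05. A fold change is mutant over WT or later over earlier time, on the log2 scale, ± its standard error. The scripts were tested on simulated data.

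Every member is counted. Values are given for 10 members taken for their roles, for the 3 highest and 3 lowest called members of a comparison, and for every call where 5 or fewer were made, and members without a call are named where most were called. The 3 pathway calls of smallest adjusted p are named, or every one of 5 or fewer, except an item that is not reported here. Genes named besides were chosen after their values were seen. Members and lists were chosen with earlier results of these data known. The alternatives tried were a DESeq2 1.42.0 test, edgeR scaled by DESeq2's size factors, all genes unfiltered, fits of only 2 groups, the replicate block, leaving out conflicting labels or each KO1 culture, and summed libraries. For summed libraries, those of KO2 and KI with neighbouring numbers in a group were pooled into 3 units per group. The labels do not give this grouping. CPM of total counts and leaving out F121A library 5 were added after seeing the data. KO1 culture numbers recur across times, and the fit with them as a block is given beside the KO1 time comparisons, while numbers in KO2 and KI pair nothing by the labels. A comparison of protein sequences between members was planned and not run, for want of a protein table. In its place 38-base windows of GENCODE transcripts were compared.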

Additional observations from a re-analysis of the deposited data

Results flagged for a closer look

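The genotype effect changed with time for 24 of the 40 genes in KO2 from 0 h to 6 h and for 20 from 0 h to 24 h, all smaller after stimulation, where 4.07% and 5.91% of all genes changed. In KI it changed for 3 genes by 6 h and for 3 by 24 h, where 3.3% and 4.26% of all genes changed. Lgals3bp at 6 h changed sign and the other calls were larger after stimulation. The resting effect differed between KO2 and KI for 22 genes, larger in KO2 for each, where 3.87% of all genes differed. These counts come from tests of the difference itself in edgeR at an adjusted p under 0.05, and the KO2 genotypes also differ by sex.

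Single libraries stood apart from their group in 11 of 132 checks, each of 1 measure (the list level or a gene) in 1 group. Chance gives about 1 in 20 for a single check, but these checks share libraries and are not independent. KO2 KO 6 h library 7 had the lowest list level of its group (8.992), the lowest Stat2 (173.7 CPM) and the highest Ifitm3 (3605 CPM). KO2 WT 6 h library 2 had the lowest list level of its group (8.648), and Mx1 was highest in KO2 WT 0 h library 9 (7.085 CPM). In KI, F121A 0 h library 5 had the highest Isg15 (6.678 CPM) and Slfn4 (1.757 CPM). WT 0 h library 5 had the lowest Rsad2 (21.01 CPM), and WT 6 h library 5 the lowest Oasl1 (2629 CPM) and the highest Slfn4 (58.35 CPM). Stat2 was highest in F121A 24 h library 3 (557.9 CPM).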

How the results depend on the processing

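Of the member counts and medians recomputed under the alternatives, 559 stayed within the limits set for them and 29 moved, while of single-gene values 1716 kept their call and direction, 78 lost and 45 gained a call, and 37 changed sign. Without a filter 1 member was called higher in KO1 at 0 h, none was called lower in KO2 at 6 h, 11 fell and the median was -0.84 in the WT 24 h over 6 h comparisons of KO1 and KI, and 5 were called higher in KO2 minus KO1. The WT count above 6 h at 24 h in KO2 was 2 without a filter, with the replicate block and with summed libraries, and 18 fell in KO1 when only 2 groups were fitted. In KI at 0 h 3 rose with DESeq2 size factors, with summed libraries and without F121A library 5. The single falls in KO2 and KI at 6 h became 0 with summed libraries, and that of KI also without the conflicting labels. The KI median of WT 6 h over 0 h was 4.58 with DESeq2 or without F121A library 5, 4.59 with its size factors, 4.48 without a filter and 4.57 with summed libraries. DESeq2 called 5 genes, not 3, for the KI change from 0 h to 6 h. With CPM of total counts 14 genes were apart in KO2 at 6 h and 0 in KO1. DESeq2 moved the median of all genes by 0.31 (6 h over 0 h) and -0.38 (24 h over 6 h) in KO1 and by -0.19 and -0.12 (24 h over 6 h) in KO2 and KI, no filter by -0.22 in KO1 (24 h over 6 h), and leaving out F121A library 5 by -0.11 in KI (6 h over 0 h). The causes were not tested, and the shares of all genes called under the alternatives of this section are not given here.

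Leaving out each KO1 culture gave 2 to 9 falls and 1 to 3 rises in WT at 24 h over 6 h, and 0 to 1 calls in each direction for KO2 minus KO1. KO1 effects then ran from -0.23 to 1.07 for Isg15, -0.07 to 4.30 for Ms4a4c and -1.03 to 3.77 for Slfn4 at rest. At 6 h they ran from -0.11 to 0.60 for Ifitm3, -0.12 to 0.39 for Mx1, -0.02 to 0.80 for Rsad2 and -0.03 to 0.72 for Usp18. At 24 h they ran from -0.12 to 0.22 for Ifitm3, -0.04 to 0.40 for Isg15, -0.14 to 0.15 for Mx1 and -0.13 to 0.39 for Usp18. With DESeq2 Ifitm3 and Mx1 were both -0.02 there, and with its size factors -0.01 and -0.02. Slfn4 in KI at rest was -0.19 without F121A library 5. In WT 24 h over 6 h, Herc6 in KO2 was 0.07 without a filter, 0.03 with the block and 0.02 with summed libraries, Ms4a4c -0.01 with summed libraries, Slfn1 0.00 and, in KI, Rsad2 0.02 without a filter. The KO2 change of Isg15 from 0 h to 6 h was 0.07 without a filter and 0.12 with summed libraries.

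KO1 titles repeat a culture number across times, without saying that it is 1 mouse, and in KO2 and KI libraries share only a number. Deviations of same-numbered samples correlated between -0.181 and 0.322. With the replicate block 39 genes rose in KO1 WT cells at 6 h and 8 fell at 24 h over 6 h, 8 genes rose in KI at 0 h and 19 at 24 h, and Stat2 in KO2 at 24 h was -0.00. Few counts limit Slfn4, Isg15 and Ms4a4c at rest in KO2.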
